A study of Homo sapiens with 12 samples.

Results

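Neurotensin is a secreted peptide cut from the precursor that NTS encodes, and it signals through NTSR1, NTSR2 and the sorting receptor sortilin (SORT1). These 4 genes were followed in RNA from human embryoid bodies, floating clusters of differentiating pluripotent stem cells. They were found by symbol among 65969 gene identifiers, and 3 of the 4 passed the filter on low counts that left 24898 genes for testing. NTS was chosen by its own values, because it was lower in every METTL14 knockdown library than in the controls of the same line. Its values against the controls are therefore a description with no test. The receptors were taken because they bind neurotensin, whatever their values.

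The embryoid bodies came from H1 and MEL1, established human embryonic stem cell lines. Both lines were transduced with a lentiviral, doxycycline-inducible short hairpin RNA and selected with puromycin. The hairpin was either a control (SCR) or 1 of 3 against METTL14 (KD1, KD2 and KD3), a subunit of the enzyme that writes N6-methyladenosine (m6A) on RNA. Every group, SCR included, received doxycycline at 2 µg/ml for 10 days, starting from 500 cells per microwell. Each of the SCR, KD1, KD2 and KD3 hairpins had 2 libraries in H1, and MEL1 gave 1 SCR, 2 KD1 and 1 KD2 library. Nothing in the labels says whether libraries of a group came from separate cultures, so p-values measure only the spread between these libraries.

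In the body, neurotensin is made by enteroendocrine cells of the gut and by neurons of the hypothalamus and other brain regions. Prohormone convertases, PCSK1 among them, cut it from its precursor inside dense-core vesicles, and peptidases such as neurolysin (NLN) and thimet oligopeptidase (THOP1) break it down. NTSR1 is a G protein-coupled receptor that acts through Gq and phospholipase C, NTSR2 is its lower-affinity relative, and sortilin is a VPS10P-domain receptor that mostly sorts proteins inside cells.

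NTS (ENSG00000133636) lies on chromosome 12 at 85874295 to 85882992 on the plus strand of GRCh38 in GENCODE release 29, with 3 annotated transcripts, the longest of 1237 bases and 34.6% GC. No other annotated gene overlaps it. The 250 bases just before its start are shown because short motifs of neuropeptide promoters can be read in them. They cover chr12:85874045-85874294 of GRCh38.p14, plus strand, from RefSeq, and the capitals mark matches to TGACNTCA and TATATA.
NTS upstream: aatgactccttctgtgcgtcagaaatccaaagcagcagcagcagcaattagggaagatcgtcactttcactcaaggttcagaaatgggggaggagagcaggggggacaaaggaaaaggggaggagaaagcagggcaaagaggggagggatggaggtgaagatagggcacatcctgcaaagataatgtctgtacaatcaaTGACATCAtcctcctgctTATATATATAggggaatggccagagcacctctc
The match TGACATCA runs from 51 to 44 bases before the start and resembles the palindromic cyclic AMP response element TGACGTCA, which was not found in this window. TATATA matched 3 times with overlap, between 33 and 24 bases before the start, the place of a TATA box. The AP-1 motif TGANTCA was not found. On both strands, TGACNTCA was present in 6.87% of 35116 RefSeq windows of the same length, TATATA in 3.73%, TGANTCA in 6.57% and TGACGTCA in 1.65%. These motifs overlap each other in part, were picked after the sequence was seen, and describe letters only. The NTS window held 49.2% GC, against a median of 58.0% over all windows.

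Library totals were 15963241 estimated counts for MEL1 SCR and 36609628 to 43508287 for the others. METTL14, the targeted gene, stood at 29.8 and 43.8 CPM (counts after scaling libraries to 1 depth) in the H1 SCR libraries and at 8.89 to 17.7 CPM in the 6 H1 knockdown libraries. The MEL1 SCR library held 49.9 CPM, and the 3 MEL1 knockdown libraries 5.94 to 8.95 CPM. Over both lines the log2 difference of METTL14 was -1.96 (SE 0.23), at an adjusted p = 0.00266. Adjusted p-values are from the edgeR quasi-likelihood test after Benjamini-Hochberg adjustment, here and in what follows. In this fit 0.213% of all tested genes were called, and 0.157% were called lower.

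NTS RNA was abundant for a neuropeptide precursor in H1 control embryoid bodies and low in all knockdown libraries. The 2 H1 SCR libraries held 18.2 and 25.2 CPM, from 712 and 1042 counts. KD1 libraries of H1 held 2.76 and 1.52 CPM, from 109 and 65 counts. KD2 libraries held 3.08 and 3.62 CPM, and KD3 libraries held 6.42 and 5.48 CPM. Every H1 knockdown library was below both H1 SCR libraries, and the KD3 libraries were the highest of the 6. Expressed as a share of the H1 SCR mean, NTS stood at 9.85% ± 4.01 (SD, n = 2) with KD1, 15.4% ± 1.76 (SD, n = 2) with KD2 and 27.4% ± 3.07 (SD, n = 2) with KD3.

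MEL1 embryoid bodies had less NTS to begin with. The MEL1 SCR library held 5.93 CPM from 87 counts, with a 95% Poisson interval of 4.75 to 7.31 CPM that covers counting error only. The MEL1 KD1 libraries held 2.23 and 2.53 CPM and the KD2 library held 2.45 CPM, from 87, 88 and 109 counts. All 3 were below the SCR library, at 40.5% ± 2.63 (SD, n = 3) of its level. The MEL1 control value lay between the 2 H1 KD3 values, and the H1 SCR mean was 3.66 times the MEL1 SCR value. That control is 1 library, the shallowest of the 12.

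Fitted over both lines, NTS was lower by a log2 of -2.18 (SE 0.32), and over the H1 hairpins by -2.64 (SE 0.20), against medians over all tested genes of 0.05 and 0.01. Comparing the lines at hairpins KD1 and KD2, the NTS effect in MEL1 minus that in H1 was 1.72 (SE 0.42), that is, a smaller drop in MEL1. These 3 values use the SCR libraries that chose NTS and carry no test. As background, 3.96% of tested genes had every knockdown library below every SCR library of the same line.

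The NTS transcript is poor in G and C, and libraries differed in how counts depended on GC content and length. With that trend removed from each library, the H1 SCR values came to 19.7 and 20.7 CPM and the MEL1 SCR value to 4.98 CPM. The mean log2 change per library was then -2.52 in H1 and -1.03 in MEL1, against -2.66 and -1.30 without the correction. All 9 knockdown libraries remained below the SCR mean of their line. Because these are bulk samples, fewer NTS-expressing cells and less NTS per cell cannot be told apart.

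**Figure D1:**
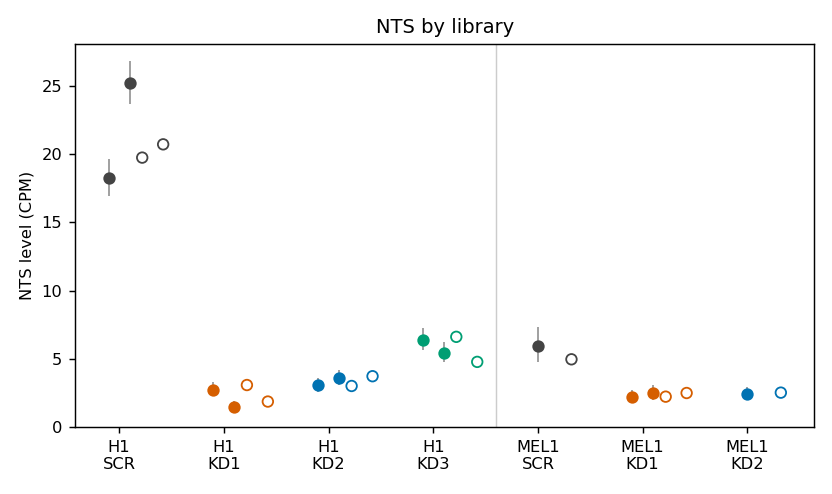
NTS level in CPM for each of the 12 libraries, by line and hairpin. Filled points are the values with 95% Poisson intervals for counting error as vertical lines, and open points beside them have the GC and length trend removed. The H1 SCR libraries, at 18.2 and 25.2 CPM, stand above all others, and H1 KD3 at 6.42 and 5.48 CPM is level with MEL1 SCR at 5.93 CPM.

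The hairpins differed among themselves, a comparison of knockdown levels in which no SCR level enters. The spread used in its tests was estimated from all 12 libraries, SCR included. NTS differed over the 3 H1 hairpins (adjusted p = 0.0380), where 3.54% of tested genes were called. KD3 was above KD1 by a log2 of 1.48 (SE 0.29, adjusted p = 0.0190), a ratio of means of 2.78, with 4.63% of genes called. Both KD3 libraries exceeded both KD1 libraries, an order that 2 libraries per group often give and that was not counted over all genes. KD2 against KD1 gave 0.65 (SE 0.29, adjusted p = 0.306; 0.851% called) and KD3 against KD2 gave 0.83 (SE 0.28, adjusted p = 0.254; 1.01% called), so KD2 was not separated from either neighbour. These calls rest on few libraries. Leaving out any of the 6 H1 knockdown libraries, or either MEL1 KD1 library, raised the adjusted p over the 3 hairpins to between 0.0503 and 0.139. KD3 against KD1 lost its call without KD1 replicate 2 (adjusted p = 0.144), KD3 replicate 1 (0.0629) or KD3 replicate 2 (0.0766).

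The mean METTL14 levels did not follow the same order, but no difference between the H1 hairpins was called for METTL14. The adjusted p was 0.285 over the 3 hairpins, 0.302 for KD2 against KD1 and 0.447 for KD3 against KD2. Whether NTS follows the depth of the knockdown was not tested. METTL14 stood at 30.0% ± 0.163 (SD, n = 2) of the H1 SCR mean with KD1, 44.1% ± 5.52 (SD, n = 2) with KD2 and 30.5% ± 8.87 (SD, n = 2) with KD3. KD3 against KD1 gave a log2 of 0.02 (SE 0.24, adjusted p = 0.982) for METTL14, beside 1.48 for NTS. In MEL1, METTL14 was at 15.3% ± 3.09 (SD, n = 3) of its SCR level, below the share left in H1, while NTS kept a larger share than in H1.

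Under knockdown, NTS levels did not separate between the lines. MEL1 against H1 within the KD1 and KD2 libraries gave a log2 of -0.15 (SE 0.23, adjusted p = 0.633), in a comparison where 44.0% of tested genes were called. The 3 MEL1 values, 2.23 to 2.53 CPM, fell inside the range of the 4 H1 values, 1.52 to 3.62 CPM.

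SORT1 (ENSG00000134243), on chromosome 1 at 109309568 to 109397951 on the minus strand, was the receptor with the highest counts. The H1 SCR libraries held 102.2 and 102.1 CPM. With KD1 the H1 libraries held 104.1 and 101.9 CPM, with KD2 122.7 and 109.2 CPM, and with KD3 114.8 and 120.1 CPM. In MEL1 it stood at 108.2 CPM with SCR, 104.2 and 87.3 CPM with KD1, and 135.6 CPM with KD2. Control and knockdown libraries overlapped in both lines, and the highest library was 1.55 times the lowest.

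No test called SORT1. Its log2 difference was 0.09 (SE 0.12, adjusted p = 0.760) over both lines and 0.13 (SE 0.09, adjusted p = 0.444) over the H1 hairpins, where 7.16% of genes were called. The adjusted p was 0.513 between hairpins, and MEL1 against H1 gave 0.06 (SE 0.09, adjusted p = 0.621). For the difference of the effect between lines SORT1 gave -0.02 (SE 0.17, adjusted p = 1.0), with 0.598% of genes called.

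NTSR1 (ENSG00000101188), the Gq-coupled receptor, lies on chromosome 20 at 62708837 to 62762771 on the plus strand and was near the limit of detection. The H1 SCR libraries held 0.820 and 0.483 CPM. The H1 knockdown libraries held 0.379 and 0.797 CPM with KD1, 0.535 and 1.02 CPM with KD2, and 0.376 and 0.273 CPM with KD3. The MEL1 SCR library had 1 count (0.068 CPM, 95% Poisson interval 0.00173 to 0.380 CPM), and the MEL1 knockdown libraries held 0.307 and 0.201 CPM with KD1 and 0.180 CPM with KD2. In H1 the control and knockdown ranges overlapped.

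Knockdown did not separate from SCR for NTSR1, at a log2 of 0.09 (SE 0.48, adjusted p = 0.956) over both lines and -0.30 (SE 0.47, adjusted p = 0.762) over the H1 hairpins. With these errors only a large change could have been detected. The hairpins gave an adjusted p of 0.430, and the effect did not separate between lines (1.55, SE 1.34, adjusted p = 0.599). MEL1 was lower than H1 within the KD1 and KD2 libraries, by a log2 of -1.64 (SE 0.51, adjusted p = 0.0231), and the 3 MEL1 values lay below all 4 H1 values. In this comparison 44.0% of all tested genes were called. That call was lost with DESeq2 (adjusted p = 0.0556) and without H1 KD1 replicate 2 (0.0835), H1 KD2 replicate 2 (0.0764) or MEL1 KD1 replicate 2 (0.0570). An annotated antisense gene overlaps NTSR1, at a mean of 0.0634 CPM, and how strand was used in counting is not given in the sources used here.

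NTSR2 (ENSG00000169006), on chromosome 2 at 11658178 to 11670164 on the minus strand, had 0 counts in all 12 libraries. A count of 0 allows up to 0.205 CPM in MEL1 SCR and up to 0.0642 to 0.0861 CPM in the others, taking 3 counts as the limit for counting error. It was not tested.

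**Figure D2:**
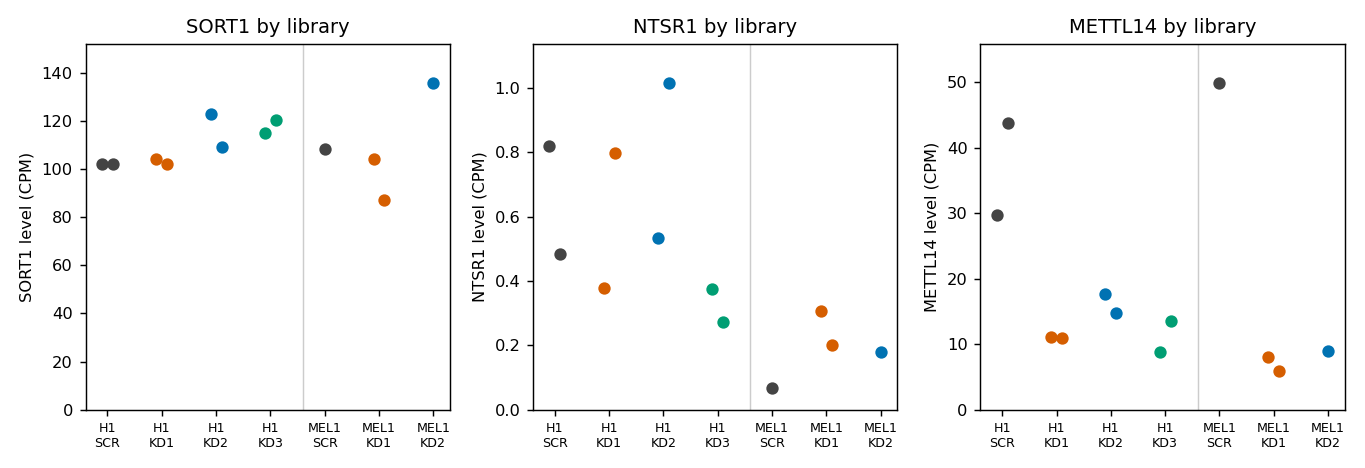
SORT1, NTSR1 and METTL14 levels in CPM by library, each panel with its own axis from 0, coloured by hairpin. SORT1 stays between 87.3 and 135.6 CPM in all libraries, NTSR1 does not exceed 1.02 CPM, and METTL14 is lower in each knockdown library than in the SCR libraries of its line.

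Between genes, levels were compared per kilobase of the longest annotated transcript. In H1 SCR libraries NTS stood at 17.6 ± 3.97 CPM per kb (SD, n = 2), SORT1 at 14.5 ± 0.00636 and NTSR1 at 0.158 ± 0.0576. The order of NTS and SORT1 did not exceed the spread of NTS and depends on the length used: with the median transcript length, SORT1 came to 179 CPM per kb and NTS to 19.4. After knockdown in H1 NTS stood at 3.08 ± 1.47 CPM per kb (SD, n = 6), below SORT1 at 16.0 ± 1.21. NTSR1 remained lowest of the 3 in every group.

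Among 37 neuropeptide precursors with a symbol in the table, ranked per kilobase, NTS was in place 2 in H1 SCR after tachykinin 3 (TAC3) at 22.0 CPM per kb. It was in place 6 in H1 knockdown, 6 in MEL1 SCR and 8 in MEL1 knockdown. Galanin (GAL) was in place 1 in MEL1 with and without knockdown, and in place 13 in H1 SCR.

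Of the 36 other precursors, 24 passed the low-count filter and 4 (NPVF, PMCH, NMS and UCN3) were at 0 in all libraries. None was called over both lines, where 0.213% of all tested genes were called, so that count is near the background. Over the H1 hairpins 6 fell and none rose, in a comparison where 4.93% of all tested genes were called lower, and the median log2 was -0.44 against 0.01 for all genes. The 6 were named after their values were seen, and a precursor that passed the filter through its SCR level had to be lower elsewhere, so the count is a description. Somatostatin (SST) went from 5.71 and 5.58 CPM in H1 SCR to 0.853 to 1.79 CPM in H1 knockdown, a log2 of -2.26 (SE 0.21, adjusted p = 0.000496). The SST ranges in H1 did not overlap, a pattern that was not counted over all genes. In MEL1, SST went the other way, with 0.545 CPM in the SCR library (8 counts) and 0.921 to 1.0 CPM in the knockdown libraries. Corticotropin-releasing hormone (CRH) fell by 1.80 (log2, SE 0.26, adjusted p = 0.00461), neuropeptide Y (NPY) fell by 2.00 (SE 0.48, adjusted p = 0.0328) and substance P precursor TAC1 fell by 1.39 (SE 0.28, adjusted p = 0.0191).

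CALCA, which encodes calcitonin and its gene-related peptide, fell by 1.63 (SE 0.43, adjusted p = 0.0454), and TAC3 fell by 0.56 (SE 0.14, adjusted p = 0.0368). TAC3 and neuromedin U (NMU), which had the highest mean CPM of the list over the 12 libraries, gave -0.44 (SE 0.17, adjusted p = 0.225) and -0.21 (SE 0.23, adjusted p = 0.712) over both lines. The H1 call held under all 17 alternatives for SST. It was lost without H1 SCR replicate 2 for the other 5, and CRH lost it under no other alternative. TAC1, TAC3, NPY and CALCA lost it under 4, 6, 6 and 9 alternatives.

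**Figure D3:**
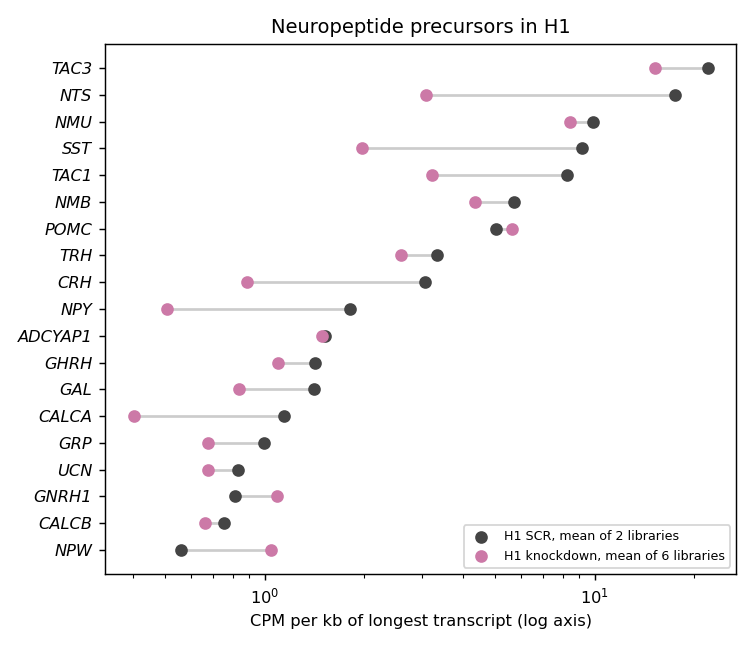
Neuropeptide precursors with at least 0.5 CPM per kb in H1 SCR, as CPM per kilobase of longest transcript on a log axis. Dark points are the mean of 2 SCR libraries and pink points the mean of 6 knockdown libraries. NTS drops from 17.6 to 3.08 CPM per kb, and TAC3 stays highest.

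Of the genes that process the precursor, PCSK1 was lower after knockdown. PCSK1 encodes prohormone convertase 1/3, one of the enzymes that cut neurotensin free. Its H1 SCR libraries held 14.5 and 18.4 CPM, its H1 KD1 libraries 7.84 and 7.20 CPM, its KD2 libraries 4.75 and 3.97 CPM and its KD3 libraries 8.25 and 9.07 CPM. In MEL1 PCSK1 stood at 2.79 CPM with SCR, 1.20 and 0.947 CPM with KD1 and 0.675 CPM with KD2. Each knockdown library was below the SCR libraries of its line, as was the case for 3.96% of all tested genes. Over the H1 hairpins PCSK1 gave a log2 of -1.32 (SE 0.16, adjusted p = 0.00214), a call that held under all 17 alternatives.

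Over both lines PCSK1 fell by 1.35 (SE 0.24, adjusted p = 0.0387), but this call was lost under 10 of 19 alternatives. Those were the H1 libraries by themselves (adjusted p = 0.0614) and leaving out either H1 SCR, H1 KD1 or H1 KD2 library, H1 KD3 replicate 1, MEL1 SCR or MEL1 KD1 replicate 1 (0.0525 to 0.277). PCSK1 also differed between the hairpins (adjusted p = 0.0487), with KD2 lowest where KD1 was lowest for NTS. The call between hairpins was lost without any H1 knockdown library or either MEL1 KD1 library (0.0529 to 0.189). None of the 3 pairs of hairpins was called for PCSK1.

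The list of processing genes had 7 members, all tested, of which PCSK1 was called over both lines, where 0.213% of all tested genes were called, and PCSK1 and PCSK5 in H1, where 7.16% were. Its median log2 was 0.26 over both lines and 0.07 in H1. PCSK5, another convertase, rose in H1 from 15.4 and 17.3 CPM to 22.3 to 36.6 CPM, a log2 of 0.83 (SE 0.12, adjusted p = 0.00415), under all 17 alternatives. Carboxypeptidase E (CPE), which trims the cut peptides, gave 0.07 (SE 0.10, adjusted p = 0.732) in H1, and PCSK2, the other neuroendocrine convertase, -0.22 (SE 0.21, adjusted p = 0.600). CPE differed between the hairpins (adjusted p = 0.0163, with 3.54% of all tested genes called). For CPE, KD2 against KD1 gave 0.6 (SE 0.12, adjusted p = 0.0446) and KD3 against KD2 -0.67 (SE 0.12, adjusted p = 0.0266). Its average therefore does not describe each hairpin.

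None of 6 neurotensin-degrading peptidases was called over both lines or in H1 against SCR, and the list medians were -0.03 and -0.13. At 0.213% and 7.16% of all tested genes called, that count too is near the background. NLN gave a log2 of -0.25 (SE 0.13, adjusted p = 0.354) and THOP1 0.00 (SE 0.12, adjusted p = 0.994) over both lines. MME of this list differed between the H1 hairpins (adjusted p = 0.0269, with 3.54% of all tested genes called). For MME, KD3 was above KD2 by 1.63 (SE 0.3, adjusted p = 0.0361, with 1.01% called). Of 11 relatives and partners of sortilin none was called over both lines, while SORCS1 at 0.61 (SE 0.13, adjusted p = 0.0245) and SORL1 at 0.47 (SE 0.12, adjusted p = 0.0436) rose in H1. Both are VPS10P-domain receptors like sortilin, and 7.16% of all tested genes were called in H1. These rises are averages over the hairpins, and SORCS1 differed between hairpins (adjusted p = 0.035, with 3.54% of genes called). For SORCS1, KD3 was above KD1 by 0.82 (SE 0.16, adjusted p = 0.0196). The SORCS1 call was lost without either H1 SCR library, H1 KD1 replicate 1 or H1 KD3 replicate 2, and that of SORL1 without any single H1 library. Prosaposin (PSAP) and the trafficking adaptor GGA2, which had the highest mean CPM of the list over the 12 libraries, gave 0.05 (SE 0.26, adjusted p = 0.955) and 0.36 (SE 0.13, adjusted p = 0.210) over both lines. PSAP differed between the H1 hairpins (adjusted p = 0.00357), with KD3 against KD1 at -1.24 (SE 0.15, adjusted p = 0.00216).

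**Figure D4:**
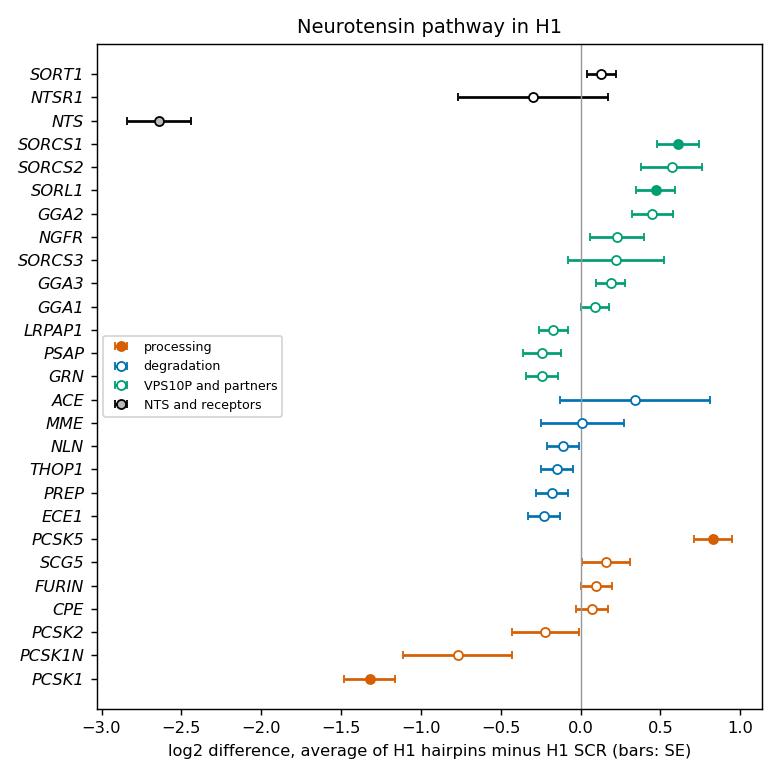
Log2 difference of the average of the H1 hairpins minus H1 SCR for NTS, its receptors and 3 gene lists, with SE as bars. Colour-filled points were called at an adjusted p under 0.05, open points were not, and the grey NTS point carries no test because its values chose it. PCSK1 lies at -1.32 and PCSK5 at 0.83, while the peptidases show no call.

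Downstream of NTSR1, none of 16 Gq signalling genes was called over both lines or in H1 against SCR, with medians of 0.00 and -0.06. With 0.213% and 7.16% of all tested genes called, a count of 0 in a list of this size is near the background. Arrestin ARRB2 gave 0.01 (SE 0.11, adjusted p = 0.982) and GNAQ, the Gq subunit, 0.05 (SE 0.16, adjusted p = 0.910) over both lines. PRKCB of this list differed between the H1 hairpins (adjusted p = 0.0375), where 3.54% of all tested genes were called. Of 13 AP-1, CREB and glucocorticoid receptor genes, which encode regulators of NTS transcription in other cells, none was called over both lines and the medians were -0.06 and -0.05. JUND gave 0.38 (SE 0.23, adjusted p = 0.468) and CREB1 -0.06 (SE 0.16, adjusted p = 0.893). FOSL1 was lower in H1, at a log2 of -1.38 (SE 0.37, adjusted p = 0.0491), a call lost under 11 of 17 alternatives, both other scalings included, and 1 of 13 is near the 7.16% called over all genes.

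Dense-core vesicle genes were tested as 7, with none called over both lines and a median of -0.43. With 0.213% of all tested genes called over both lines, that count is near the background. In H1 the median was -0.50, and chromogranin A (CHGA) and secretogranin 2 (SCG2), proteins packed with peptide hormones, fell, where 4.93% of all tested genes were called lower. CHGA went from 50.4 and 47.4 CPM in H1 SCR to 6.94 to 15.6 CPM in H1 knockdown, a log2 of -2.00 (SE 0.27, adjusted p = 0.00682). SCG2 gave -1.76 (SE 0.34, adjusted p = 0.0163), and both calls were lost without H1 SCR replicate 2 (adjusted p = 0.0816 and 0.139). In MEL1, CHGA was 4.98 CPM with SCR and 4.68 to 12.6 CPM with the hairpins, so the ranges overlapped. CADPS2 and CADPS, which had the highest mean CPM of the list over the 12 libraries though not in H1 SCR, gave 0.10 (SE 0.17, adjusted p = 0.835) and 0.05 (SE 0.22, adjusted p = 0.945) over both lines. Both differed between the H1 hairpins (adjusted p = 0.0412 and 0.0228, with 3.54% of all tested genes called).

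Markers of cells that make neurotensin did not all move with NTS. Of 8 enteroendocrine markers GCG and NKX2-2 were at 0 in all libraries and none of the 6 tested was called over both lines or in H1. With 0.213% and 7.16% of all tested genes called, that count is near the background. The summed level of the 8 enteroendocrine markers was 17.5 to 25.3 CPM in H1 SCR and 17.1 to 27.7 CPM in H1 knockdown, so the ranges overlapped. In MEL1 it was 2.52 CPM with SCR and 3.62 to 5.08 CPM with the hairpins. The 9 hypothalamic markers summed to 36.8 to 53.1 CPM in H1 SCR and 69.3 to 113 CPM in H1 knockdown. RAX, an early hypothalamic and eye field factor, rose in H1 by 0.93 (SE 0.19, adjusted p = 0.0214) and made up most of the sum, at 25.4 and 40.0 CPM in H1 SCR and 42.4 to 91.6 CPM in H1 knockdown. Only 3 of the 9 reached a mean of 1 CPM, and HMX2 and HMX3 gave -1.04 (SE 0.54, adjusted p = 0.279) and -1.0 (SE 0.69, adjusted p = 0.429). In MEL1 the sum was 4.77 CPM with SCR, inside the knockdown range of 2.32 to 4.99 CPM.

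Of 8 neuronal markers STMN2 was called in H1, lower by -0.67 (SE 0.09, adjusted p = 0.00345), and the sums were 496 to 575 CPM with SCR and 439 to 684 CPM with the hairpins. For this and the marker counts below, 7.16% of all tested genes were called in H1 and 0.213% over both lines. At 1 of 8 called, the neuronal count is near the H1 share. STMN2 also differed between the H1 hairpins (adjusted p = 0.0314), with KD3 above KD1 by 0.48 (SE 0.11, adjusted p = 0.0419). In MEL1 the neuronal sums were 156 CPM with SCR and 153 to 205 CPM with the hairpins. Of 6 neural progenitor markers PAX6, LHX2 and OTX2 rose in H1, with sums of 920 to 988 CPM with SCR and 997 to 1227 CPM with the hairpins. In MEL1 the order of these sums was the opposite, 647 CPM with SCR and 448 to 532 CPM with the hairpins. SOX1, NES and HES5 of this list were not called in H1 against SCR. Over both lines none of the 6 was called, with SOX1, NES and HES5 at a log2 of 0.19, -0.17 and 0.70. In that fit PAX6, LHX2 and OTX2 gave 0.92, 0.77 and 0.1. SOX1 differed between the H1 hairpins (adjusted p = 0.0293), with KD3 above KD1 by 1.32 (SE 0.25, adjusted p = 0.0177). Of 8 endothelial markers KDR, a VEGF receptor, was called lower over both lines (-0.89, SE 0.16, adjusted p = 0.0363), and the sums were 171 to 177 CPM in H1 SCR and 79.8 to 103 CPM in H1 knockdown. KDR by itself held 152.7 and 156.6 CPM of the H1 SCR sums, no other member was called over both lines or in H1, and PROX1 gave 0.37 (SE 0.20, adjusted p = 0.295) in H1. In MEL1 the endothelial sum was 154 CPM with SCR and 90.7 to 129 CPM with the hairpins. Pluripotency markers (7) summed to 1569 to 1706 CPM in H1 SCR, 1673 to 2001 CPM in H1 knockdown, 3721 CPM in MEL1 SCR and 2444 to 4164 CPM in MEL1 knockdown, with POU5F1, NANOG and ZFP42 lower and SOX2 higher in H1. These H1 calls are averages over the hairpins, and NANOG differed between hairpins (adjusted p = 0.01, with 3.54% of tested genes called). For NANOG, KD3 was above KD1 by a log2 of 2.23 (SE 0.31, adjusted p = 0.00594), so the average does not describe each hairpin. No tested member of the endoderm (12 of 13 tested) or mesoderm (7 of 7) lists was called over both lines or in H1 against SCR. With 0.213% and 7.16% of all tested genes called, these counts are near the background. The KDR call over both lines was lost without MEL1 KD1 replicate 1 or any H1 library other than KD2 replicate 1 (adjusted p = 0.0552 to 0.267), and its H1 call held under all 17 alternatives, as did that of STMN2. The other marker calls in H1 were all lost without H1 SCR replicate 2. Of 17 alternatives they were lost under 2 for RAX, POU5F1 and ZFP42, 3 for LHX2, 5 for NANOG and 6 for PAX6, OTX2 and SOX2, for PAX6 with the GC and length trend removed among them (adjusted p = 0.107). The part of these markers in the NTS values was not tested.

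The genes most like NTS over the 12 libraries were listed as a description, by Pearson's r of log2 CPM among 14952 genes with a symbol and a mean of at least 1 CPM. With each line's mean subtracted they were TYMS (r = 0.962), CDC42 (0.960), MAPRE1 (0.956), SPRY4 (0.951) and DUSP6 (0.948). SPRY4 and DUSP6 encode feedback inhibitors of FGF and ERK signalling. SPRY4 stood at 145.1 and 155.7 CPM in H1 SCR and 51.9 to 74.8 CPM in H1 knockdown, with KD3 replicate 1 highest, as for NTS. Without subtracting line means they were MGAT2 (0.941), WEE1 (0.929), AKR1C3 (0.927), PPA2 (0.915) and HACD3 (0.915). AKR1C3, a steroid and prostaglandin reductase, stood at 18.6 and 20.3 CPM in H1 SCR, 2.57 to 6.31 CPM in H1 knockdown, 5.66 CPM in MEL1 SCR and 1.81 to 3.94 CPM in MEL1 knockdown, close to the NTS levels. The libraries share line, hairpin and depth, so these r values describe shared differences between groups.

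The nearest tested neighbours of NTS did not pass the test over both lines. RASSF9, 37725 bp before it, gave -0.27 (SE 0.67, adjusted p = 0.889), and MGAT4C, 72674 bp after it, gave -0.96 (SE 0.49, adjusted p = 0.365). LINC02820 and C12orf50, farther out on either side, gave -0.16 (SE 0.30, adjusted p = 0.847) and 0.12 (SE 0.49, adjusted p = 0.940). Their mean levels were 0.388 CPM for RASSF9, 0.503 CPM for MGAT4C, 1.27 CPM for LINC02820 and 0.657 CPM for C12orf50, so that only large changes could have been detected.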

How the data were processed

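Total RNA of day 10 embryoid bodies was sequenced in 12 stranded libraries. The authors deposited estimated counts per Ensembl gene identifier. The submitters' processing notes name fastp and kallisto. Their versions, the genome build and the annotation are not given in the sources used here, nor is how transcripts were summed to genes. Symbols came from a name table that held 59243 of 65969 identifiers, 41981 of them with a symbol, and coordinates from GENCODE 29.

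Estimated counts were rounded, filtered with filterByExpr over the 7 groups and scaled by TMM (edgeR 4.0.16, limma 3.58.1, R 4.3.3). Genes were called by the robust quasi-likelihood F-test at an adjusted p under 0.05 (Benjamini-Hochberg over 24898 genes). The comparison over both lines had cell line as a covariate, and the others were contrasts of 7 group means. In the fit over both lines, differences of the effect between hairpins or between lines counted as spread, which makes calls harder to reach. SE is the log2 difference divided by the square root of F. Library numbers only name libraries. The GC and length correction used splines with 5 and 4 degrees of freedom, with values for 90.7% of tested genes. Alternatives were DESeq2 1.42.0, no filter, scaling by upper quartile or by median of ratios, that correction, leaving out each library and, over both lines, group means and H1 by itself.

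The members and gene lists were chosen with earlier results of these data known. The rule for named genes took NTS, its receptors, METTL14, the members of each pathway list called over both lines or otherwise the 2 with the highest mean CPM over the 12 libraries, the 5 genes most like NTS by either measure and its 2 nearest tested neighbours on each side. Genes named because they were called in H1 were chosen after their values were seen.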

Additional observations from a re-analysis of the deposited data

Results flagged for a closer look

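NTS was higher with hairpin KD3 than with KD1 in H1, by a log2 of 1.48, and is listed because the test between these hairpins was passed. NTS came to 5.95 ± 0.666 CPM (SD, n = 2) with KD3 and 2.14 ± 0.872 CPM (SD, n = 2) with KD1, while METTL14 came to 11.2 ± 3.27 and 11.0 ± 0.0593 CPM (SD, n = 2 each). Dixon's test over the 6 H1 knockdown libraries flagged no single library for NTS, SORT1, NTSR1 or METTL14. It pooled the 3 hairpins, so it could not show whether a library differed from the other library of its hairpin.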

How the results depend on the processing

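NTS kept its direction against SCR under every alternative run, at a log2 of -2.51 to -1.87 over both lines, -2.84 to -2.38 in H1 and 1.47 to 1.94 for the difference between lines. SORT1 was called under none of its alternatives. Without 1 library the NTS adjusted p over the hairpins ranged from 0.0328 to 0.139, KD3 against KD1 from 1.11 to 1.92, and NTSR1 between lines from -1.87 to -1.33. With DESeq2 the last was -1.65. Counts of called genes moved more. Over both lines 53 genes became 80 without a filter, 138 with the GC and length trend removed, 1245 with DESeq2, 2478 with group means, 175 with H1 by itself and 11 to 280 without 1 library. In H1 1783 became 3256 without a filter, 3132 with the trend removed, 2697 with DESeq2 and 123 to 1842 without 1 library. Between hairpins 881 became 3384, 2102, 3051 and 154 to 1139 in the same order. For the difference between lines 149 became 88 with median-of-ratios and 97 with upper-quartile scaling, 1369 without a filter, 560 with the trend removed, 751 with DESeq2 and 34 to 148 without 1 library. The cause was not tested. MEL1 against H1 called 10950, and 9386 to 11612 under its alternatives. Without MEL1 SCR the difference between lines could not be fitted, and without MEL1 KD2 neither it nor the comparison between lines. No paired analysis was possible because the labels carry no replicate numbers. MEL1 SCR is assumed to vary like the other groups.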
